A study of Macaca mulatta with 4 samples.

Results

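Expression of 10 transcription factors that specify or mature oligodendrocytes was followed in rhesus macaque (Macaca mulatta) prefrontal cortex. The factors were OLIG1, OLIG2, NKX2-2, NKX6-2, SOX10, SOX8, ZNF488, MYRF, TCF7L2 and ST18, chosen for their known role and matched by gene symbol, and all 10 were found among the 33618 genes of the deposited table. RNA-seq libraries came from wild type animals, 2 from the sevoflurane group and 2 from the control group, each numbered replicates 2 and 3. Sevoflurane is an inhaled general anaesthetic. It was given at about 2.5 to 3% for 4 hours on each of 3 occasions, at about postnatal day 7 and at 14 and 28 days after that or after the previous one, which the labels do not settle, and cortex was collected right at the end of the third. Control libraries carry the agent label none, and neither the handling of those animals nor whether replicates are separate animals is given in the sources used here. The p-values therefore measure only the spread between these libraries, which may be technical.

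Oligodendrocytes are the glia that wrap axons of the central nervous system in myelin. They arise from precursors marked by OLIG2, SOX10 and NKX2-2, and they switch on MYRF when they leave the precursor state, after which SOX10 and MYRF together activate the genes of the myelin sheath. In the cortex of an infant primate this process is under way, so precursors, newly formed cells and myelinating cells are present side by side.

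Total counts were 11703857 and 11706115 in sevoflurane replicates 2 and 3, and 10059944 and 7793757 in control replicates 2 and 3. Control replicate 3, the shallowest, stood apart from the other 3 libraries on the first principal component, and replicate pairs differed by more than sampling noise (chi-square of 6.93 per degree of freedom in the sevoflurane pair and 12.9 in the control pair). The cortical transcription factors TBR1 and CUX2 each had more than 100 CPM in every library, where CPM is the count scaled to the normalised library size of each library (TMM, trimmed mean of M values). These 2 differed in opposite directions between control replicates 2 and 3, with 126 and 212 CPM for TBR1, and 187 and 125 CPM for CUX2. The cause was not tested. EMX1, a further cortex marker, was lower in level, at 17.6 to 19.4 CPM over the libraries. Of 6 markers of Schwann cells, the peripheral glia that also use SOX10, FOXD3 had no count in any library. The 6 markers summed to 17.9 and 18.9 CPM in sevoflurane replicates 2 and 3, against 21.8 and 37 CPM in control replicates 2 and 3, and 1 of them, the cadherin CDH19, was called lower after sevoflurane (log2 fold change -2.34, standard error (SE) 0.41, adjusted p = 0.0479 by edgeR).

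All 10 factors had lower mean expression after sevoflurane, at 27.6% to 55.1% of the control level by the fitted fold change. OLIG2, SOX10, ZNF488 and MYRF fell at an adjusted p under 0.05 (edgeR's quasi-likelihood F test with Benjamini-Hochberg adjustment over the 17693 genes tested), to between 31.4% and 43.9% of control. The other 6 did not pass, and 0 of the 10 were called higher. Of all tested genes, 0.537% were called lower and 0.0622% higher. A negative log2 fold change was found for 10 of 10 factors, against 50.3% of all tested genes. Both sevoflurane libraries lay below both control libraries for 9 of 10, an arrangement found in 20.4% of all tested genes. The median log2 fold change of the 10 factors was -1.37, beside 0.00 over all tested genes. In bulk tissue, fewer cells of a type and less RNA per cell cannot be told apart.

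**Figure D1:**
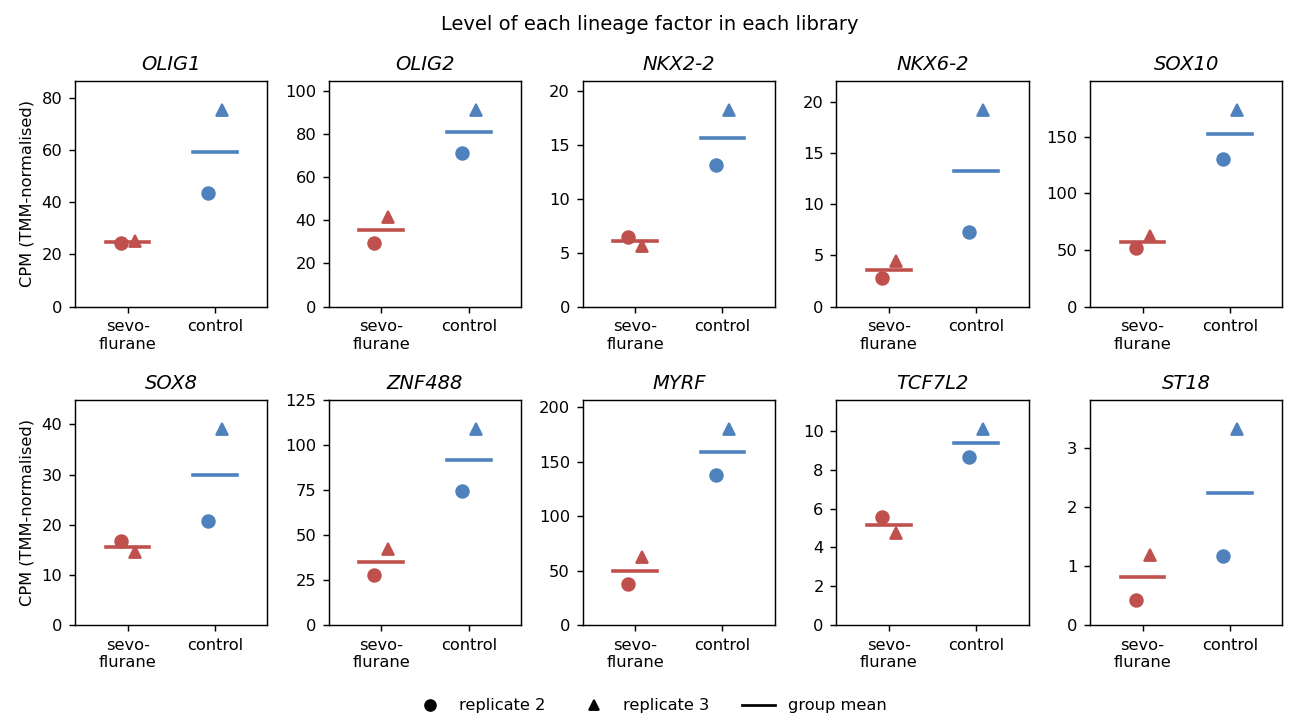
CPM (TMM-normalised, linear axes from 0) of each factor in the sevoflurane libraries (red, left) and the control libraries (blue, right), with circles for replicate 2, triangles for replicate 3 and bars for group means. In every panel except that of ST18 both red points lie below both blue points, and control replicate 3 is the highest point for all 10 factors.

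OLIG1 and OLIG2 are basic helix-loop-helix factors that specify the lineage, and OLIG2 is also kept in mature cells. They are neighbouring genes in the RefSeq table of assembly T2T-MMU8v2.0. OLIG2 had 29.6 and 41.4 CPM in sevoflurane replicates 2 and 3, against 71 and 90.8 CPM in control replicates 2 and 3. The groups were separated, with the higher sevoflurane library well short of the lower control library. The log2 fold change was -1.19 (SE 0.20, 95% interval -1.64 to -0.73, adjusted p = 0.0416 by edgeR). The call for OLIG2 was lost when libraries were scaled by total count (adjusted p = 0.0584) and when low counts were kept (adjusted p = 0.0795). OLIG1, needed in the mouse for the maturation of precursors, had 24.3 and 25 CPM in sevoflurane replicates 2 and 3, against 43.6 and 75.1 CPM in control replicates 2 and 3. The sevoflurane libraries were nearly level, and the control libraries lay above them but far apart. Its log2 fold change was -1.26 (SE 0.24, 95% interval -1.81 to -0.71), and at an adjusted p of 0.0653 by edgeR it was not called. This value moved to -0.82 when control replicate 3 was left out and to -1.61 when control replicate 2 was left out, and OLIG1 was called in each of the 4 fits that left out 1 library (adjusted p between 0.000268 and 0.0275).

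The homeodomain factors NKX2-2 and NKX6-2 act at different steps. NKX2-2 times differentiation and in the mouse represses the precursor receptor gene Pdgfra, while NKX6-2 is needed in the mouse for orderly contacts between myelin and axon. NKX2-2 had 6.49 and 5.6 CPM in sevoflurane replicates 2 and 3, against 13.1 and 18.2 CPM in control replicates 2 and 3. The groups did not overlap. The log2 fold change of NKX2-2 was -1.36 (SE 0.28, 95% interval -1.99 to -0.74, adjusted p = 0.079 by edgeR), which did not pass. NKX2-2 passed without control replicate 2 (-1.59, adjusted p = 0.0159) and without sevoflurane replicate 2 (-1.47, adjusted p = 0.0484). NKX6-2 had 2.82 and 4.41 CPM in sevoflurane replicates 2 and 3, against 7.32 and 19.2 CPM in control replicates 2 and 3. It had the most negative fold change of the 10 factors and a wide spread within the control group. Its value was -1.86 on the log2 scale (SE 0.47, 95% interval -2.91 to -0.81, adjusted p = 0.168 by edgeR). Without control replicate 3 it was -1.01 (adjusted p = 0.295), and without control replicate 2 it was -2.41 (adjusted p = 0.0035). It also passed without sevoflurane replicate 3 (-2.22, adjusted p = 0.00217). PDGFRA, the receptor gene named above, had 166 and 170 CPM in sevoflurane replicates 2 and 3, against 197 and 173 CPM in control replicates 2 and 3 (-0.14, SE 0.13, adjusted p = 0.795).

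SOX10 and SOX8 belong to the SoxE group of HMG-box factors, and SOX10 is the main activator of the lineage from precursor to myelinating cell. SOX10 had 51.3 and 62.3 CPM in sevoflurane replicates 2 and 3, against 130 and 173 CPM in control replicates 2 and 3. The lower control library was above both sevoflurane libraries by more than either group's own spread. SOX10 averaged 56.8 ± 7.73 CPM after sevoflurane and 152 ± 30.5 CPM in controls (SD, n = 2 each). It fell by 1.41 on the log2 scale (SE 0.18, 95% interval -1.81 to -1.02, adjusted p = 0.0141), the smallest p of the 10 factors, and stayed called in all 4 fits with 1 library left out (-1.61 to -1.19). SOX8, which overlaps in function with SOX10, had 16.7 and 14.6 CPM in sevoflurane replicates 2 and 3, against 20.8 and 39.1 CPM in control replicates 2 and 3. Control replicate 2 was close to the sevoflurane libraries and control replicate 3 far above them. The log2 fold change of SOX8 was -0.93 (SE 0.29, 95% interval -1.58 to -0.28, adjusted p = 0.285 by edgeR), which did not pass. It was -0.41 without control replicate 3 (adjusted p = 0.48) and -1.32 without control replicate 2 (adjusted p = 0.00522). SOX8 overlaps LMF1 and LOC106994903 in the RefSeq table, and with the strand setting of the counting not given, reads of the overlap are uncertain. LMF1 had -0.59 (SE 0.25, adjusted p = 0.493), with the same order of libraries as SOX8. LOC106994903 had -0.65 (SE 0.28, adjusted p = 0.483), with a different order in which control replicate 2 was highest. The third SoxE gene, SOX9, which is used by astrocytes and early glial progenitors, had -0.40 (SE 0.19, adjusted p = 0.544).

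ZNF488 is a zinc-finger protein whose mouse counterpart works with OLIG2 as a co-repressor. It had 27.9 and 42.3 CPM in sevoflurane replicates 2 and 3, against 74.7 and 109 CPM in control replicates 2 and 3. The groups were well separated. ZNF488 fell by 1.38 on the log2 scale (SE 0.24, 95% interval -1.92 to -0.85, adjusted p = 0.0431), a call lost when libraries were scaled by total count (adjusted p = 0.0602) and when low counts were kept (adjusted p = 0.0845). MYRF is a membrane-bound protein that cuts itself to release a nuclear fragment, and it is required for central myelination. It had 37.2 and 62.6 CPM in sevoflurane replicates 2 and 3, against 138 and 180 CPM in control replicates 2 and 3. Sevoflurane replicate 2 was the lowest library and the groups lay far apart. MYRF averaged 49.9 ± 17.9 CPM after sevoflurane and 159 ± 29.5 CPM in controls (SD, n = 2 each). It fell by 1.67 on the log2 scale (SE 0.24, 95% interval -2.20 to -1.14, adjusted p = 0.0213), the largest fall among the 4 called factors, and stayed called with each library left out (-2.09 to -1.34).

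TCF7L2 is the Wnt effector of differentiating oligodendrocytes, where it cooperates with other factors at myelin genes. It had 5.55 and 4.75 CPM in sevoflurane replicates 2 and 3, against 8.68 and 10.1 CPM in control replicates 2 and 3. The groups did not overlap and each was tight. The log2 fold change of TCF7L2 was -0.86 (SE 0.30, 95% interval -1.54 to -0.18, adjusted p = 0.356), the smallest in size of the 10, and it was called in none of the 4 left-out fits. TCF7L2 also marks thalamic neurons, and the thalamic markers GBX2 and LHX9 had at most 5 counts and 1 count in any library. The 5 thalamic markers found summed to 38.3 and 51.4 CPM in sevoflurane replicates 2 and 3, against 36.9 and 37.9 CPM in control replicates 2 and 3, with 0 of 3 tested called by edgeR and 0 with an unadjusted p under 0.05. ST18, a zinc-finger factor of the MYT1 family, was near the limit of detection with 5 and 14 counts in sevoflurane replicates 2 and 3, against 12 and 25 counts in control replicates 2 and 3. These are 0.427 CPM (exact 95% Poisson interval 0.139 to 0.997) and 1.19 CPM (0.649 to 1.99) after sevoflurane, against 1.17 CPM (0.605 to 2.05) and 3.32 CPM (2.15 to 4.89) in controls, intervals that cover counting error only. Sevoflurane replicate 3 and control replicate 2 were level, so the groups overlapped. A difference in ST18 was not detectable at this depth (log2 fold change -1.43, SE 0.77, 95% interval -3.17 to 0.30, adjusted p = 0.614). Its value was -0.53 without control replicate 3, -0.88 without sevoflurane replicate 2, -2.02 without control replicate 2 and -2.33 without sevoflurane replicate 3, and it was called in none of these fits.

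**Figure D2:**
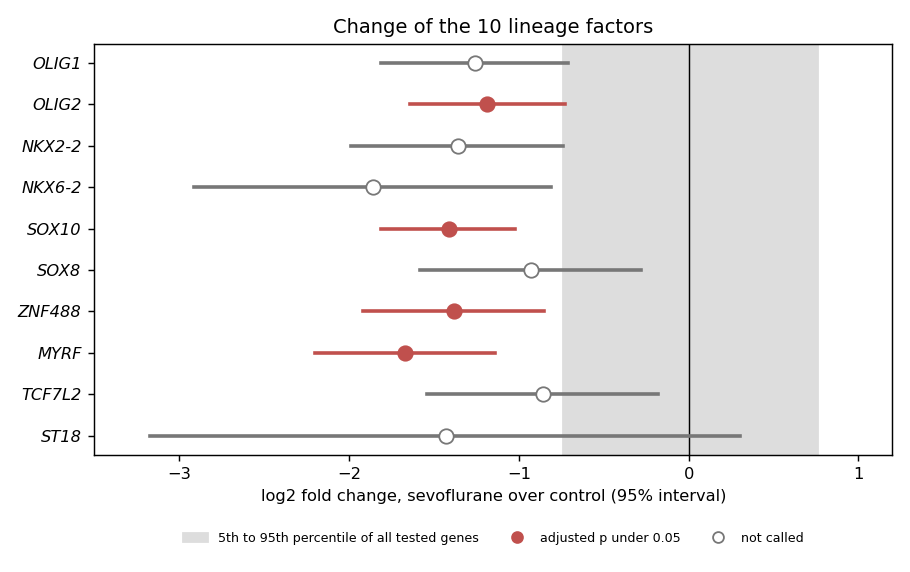
Log2 fold change of each factor, sevoflurane over control (horizontal axis), with 95% intervals; filled red circles passed the test, open circles did not, and the grey band spans the 5th to 95th percentile of all tested genes (-0.74 to 0.76). All 10 points lie left of the band, from -1.86 for NKX6-2 to -0.86 for TCF7L2, and only the interval of ST18 reaches 0.

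The 95% intervals of 9 of 10 factors lay below 0, and 9 of 10 had an unadjusted p under 0.05 with a negative change, as did 5.57% of all tested genes. The calls depended on which libraries were included. Without control replicate 3 the count called lower was 5 of 10 (table background 1.4%), and without control replicate 2 it was 8 of 10 (background 2.37%). Without sevoflurane replicate 3 the count was 6 of 10 (background 1.02%), and without sevoflurane replicate 2 it was 6 of 10 (background 0.684%). OLIG2, SOX10, ZNF488 and MYRF were called in all 4 of these fits, in which the single library left in a group is assumed to vary like the others. DESeq2 called 7 of 10 lower (background 1.24%), adding OLIG1 (adjusted p = 0.000289), NKX2-2 (0.0178) and NKX6-2 (0.0149).

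**Figure D3:**
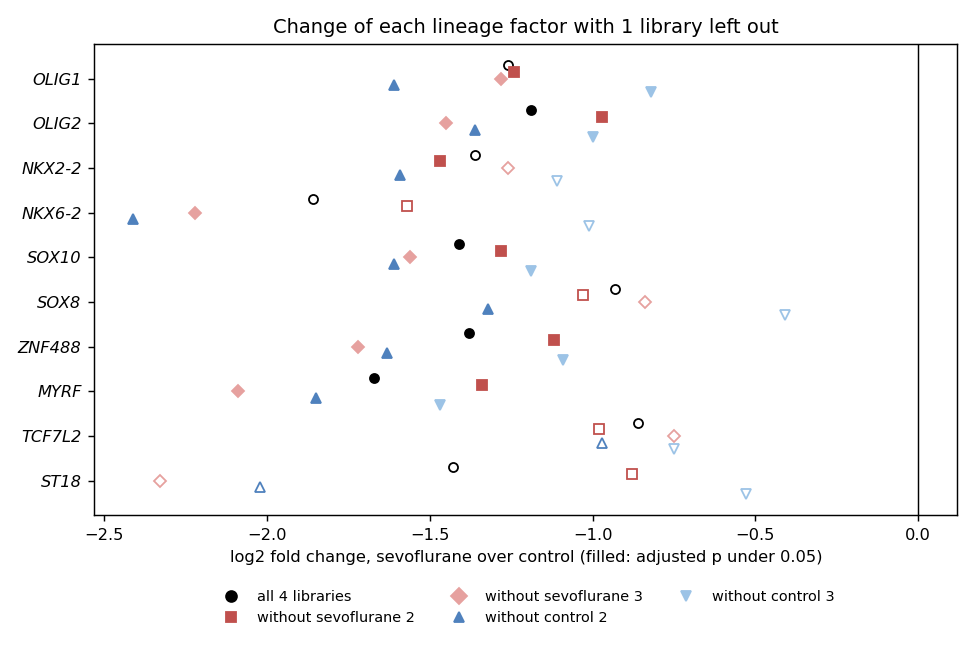
Log2 fold change of each factor, sevoflurane over control, with all 4 libraries (black circles) and with each library left out (coloured symbols); filled symbols had an adjusted p under 0.05. All values are below 0, the values without control replicate 3 are the closest to 0 for OLIG1 (-0.82), SOX8 (-0.41) and NKX6-2 (-1.01), and OLIG2, SOX10, ZNF488 and MYRF are filled throughout.

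The factors shared a profile over the libraries. Control replicate 3 was highest for 10 of 10, and control replicate 2 lay below it by between 0.21 (TCF7L2) and 1.37 (NKX6-2) on the log2 scale. The share of all tested genes with that library highest was not counted. On the first principal component of all tested genes (52.3% of variance), sevoflurane replicates 2 and 3 lay at -32.02 and -24.41. Control replicates 2 and 3 lay at -3.122 and 59.56. The mean profile of the factors had this same order, although on the component control replicate 2 lay nearer to sevoflurane replicate 3 than to control replicate 3. How many other genes share the order was not counted, so it cannot be called particular to the factors. Within the sevoflurane group replicate 3 was above replicate 2 for 7 of 10 and below it for SOX8, NKX2-2 and TCF7L2. The difference between sevoflurane replicates 3 and 2 was 0.75 for MYRF, 0.60 for ZNF488 and 0.48 for OLIG2, but 0.04 for OLIG1 and -0.19 for SOX8. Averaged over the 10 factors, log2 expression deviated from its own mean by -0.81 and -0.48 in sevoflurane replicates 2 and 3, and by 0.30 and 0.98 in control replicates 2 and 3. The gap within the control group was thus larger than that within the sevoflurane group.

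**Figure D4:**
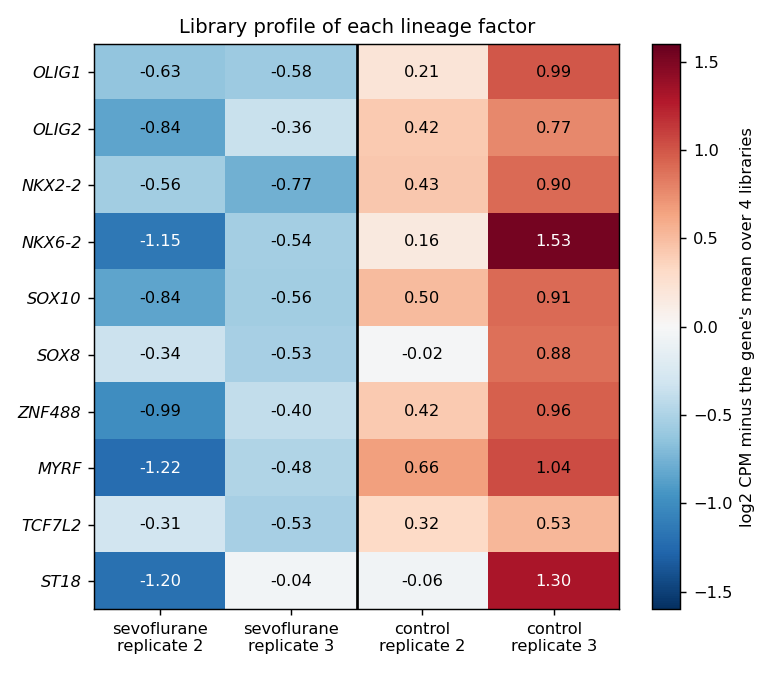
Log2 CPM of each factor (rows) in each library (columns), as the difference from the gene's own mean over the 4 libraries; blue is below and red above that mean. Both sevoflurane columns are negative for all 10 rows, and control replicate 3 is the most positive column throughout, up to 1.53 for NKX6-2.

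The balance between factors was described within each library. Of the counts of all 10 factors, MYRF made up 18.4% (Wilson 95% interval 16.91 to 20.03) and 23.7% (22.25 to 25.23) in sevoflurane replicates 2 and 3, against 27.2% (25.99 to 28.41) and 25.1% (23.94 to 26.25) in control replicates 2 and 3. MYRF thus took a smaller share in both sevoflurane libraries, narrowly so in replicate 3, where the intervals overlap that of control replicate 3. Among the 45 possible pairs of factors, the log2 ratio separated the groups in 14, with 7 lower and 7 higher after sevoflurane, and overlapped in 31. A random order of 2 against 2 libraries separates the groups with a probability of 0.333. The 14 of 45 are no excess over that probability, but pairs that share a factor are not independent. The count therefore cannot decide whether the balance shifted. The pairs given here were picked with those ratios known. The log2 ratio of OLIG2 to MYRF within a library was -0.33 and -0.59 in sevoflurane replicates 2 and 3, against -0.96 and -0.98 in control replicates 2 and 3. SOX10 relative to MYRF had 0.46 and -0.01 in sevoflurane replicates 2 and 3, against -0.09 and -0.06 in control replicates 2 and 3. OLIG2 had the higher ratio to MYRF in both sevoflurane libraries, while for SOX10 relative to MYRF sevoflurane replicate 3 was nearly level with the controls. These ratios were not tested, since the smallest two-sided p that an exact permutation of 2 against 2 libraries allows is 0.333.

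Most other regulators of the lineage were not called. Of 12 tested factors of glial progenitors, 1 was lower, 0 higher and 11 not called, with a median log2 fold change of -0.31. SOX2, which keeps progenitors and also acts in oligodendrocytes and astrocytes, fell to 92.9 and 112 CPM in sevoflurane replicates 2 and 3, against 195 and 272 CPM in control replicates 2 and 3 (-1.19, SE 0.18, adjusted p = 0.0229). ID4, an inhibitor of helix-loop-helix factors, had -0.39 (adjusted p = 0.433). Of 22 partners and cofactors, 1 was lower, 0 higher and 21 not called, with a median of -0.10. TFEB, the lysosomal regulator that restrains myelination in the mouse, fell to 6.92 and 7.81 CPM in sevoflurane replicates 2 and 3, against 18.2 and 21 CPM in control replicates 2 and 3 (-1.41, SE 0.24, adjusted p = 0.0399). The chromatin remodeller CHD7, a partner of SOX10, had -0.64 (SE 0.13, adjusted p = 0.0769). ZEB2, which antagonises BMP signalling in the lineage, had -0.48 (SE 0.14, adjusted p = 0.245). The helix-loop-helix partners of the OLIG proteins had values nearer 0, with -0.18 for TCF3, -0.12 for TCF4 and -0.41 for TCF12.

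Among 7 tested paralogs of the 10 factors, 0 were called in either direction by edgeR and 2 had an unadjusted p under 0.05, both with higher values after sevoflurane. PRDM8, the closest relative of ZNF488, had 83.7 and 75.2 CPM in sevoflurane replicates 2 and 3, against 47.2 and 49.9 CPM in control replicates 2 and 3 (0.71, SE 0.15, adjusted p = 0.0844). TCF7, of the same family as TCF7L2, had 4.44 and 6.62 CPM in sevoflurane replicates 2 and 3, against 2.24 and 1.86 CPM in control replicates 2 and 3 (1.42, SE 0.43, adjusted p = 0.279). The relatives of ST18 that neurons also express had -0.09 for MYT1 and 0.25 for MYT1L. OLIG3 had no count in any library. The signals upstream of the factors had medians near that of all genes. Of 11 tested Wnt pathway genes, 0 were called by edgeR and 2 had an unadjusted p under 0.05, with a median of -0.07. DAAM2, a Wnt modulator that holds back oligodendrocyte differentiation in the mouse, had -0.68 (SE 0.13, adjusted p = 0.061). Of 14 tested Hedgehog and BMP genes, 0 were called by edgeR, 0 had an unadjusted p under 0.05 and the median was 0.00.

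Genes that mark the stages of the lineage, or that the factors control, were set beside the 10 factors. Of 12 markers of precursors and newly formed oligodendrocytes, 1 was lower and 11 were not called, with a median of -0.68. Negative values were found for 12 of these 12 markers, and 8 had an unadjusted p under 0.05. GPR17, of cells leaving the precursor state, had -1.09 (adjusted p = 0.0519) and SMOC1, a secreted protein of precursors, had -0.87 (adjusted p = 0.0584). The called gene was BCAS1, a marker of newly formed cells, with 27.3 and 47.3 CPM in sevoflurane replicates 2 and 3, against 107 and 146 CPM in control replicates 2 and 3 (-1.76, SE 0.25, adjusted p = 0.0217). Of 15 tested myelin genes, many of them targets of SOX10 and MYRF, 13 were lower and 2 were not called, with a median of -1.83. The median of the 10 factors, -1.37, lay between these lists, and the difference between lists was not tested. The precursor markers deviated from their mean by -0.40 and -0.23 in sevoflurane replicates 2 and 3, and by 0.38 and 0.25 in control replicates 2 and 3. The myelin genes deviated by -1.12 and -0.66 in sevoflurane replicates 2 and 3, and by 0.64 and 1.13 in control replicates 2 and 3. On average the 10 factors and the myelin genes thus had the same order of libraries. The mean of the precursor markers did not set control replicate 3 above control replicate 2, but single markers differed. BCAS1 (0.45), PTPRZ1 (0.41), GPR17 (0.29) and LHFPL3 (0.15) were higher in control replicate 3 on the log2 scale. The remaining markers were lower there, down to -0.77 for VCAN.

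**Figure D5:**
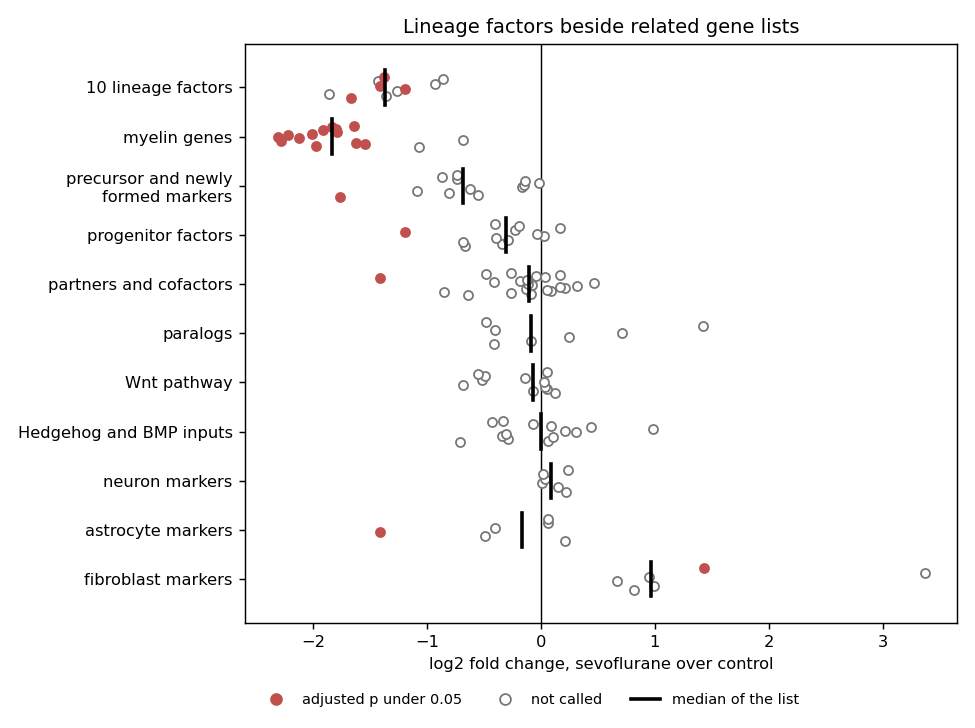
Log2 fold change, sevoflurane over control, of each tested gene in 11 lists (rows), with filled red circles for genes at an adjusted p under 0.05, open circles for the rest and black bars for list medians. The 10 factors (median -1.37) lie between the myelin genes (-1.83) and the precursor and newly formed markers (-0.68), and the neuron markers lie near 0.

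Markers of other cells moved with the libraries as well. The summed level of 6 fibroblast markers was 521 and 190 CPM in sevoflurane replicates 2 and 3, against 212 and 102 CPM in control replicates 2 and 3. This is the reverse of the 10 factors at the extremes, since sevoflurane replicate 2 was highest and control replicate 3 lowest. Of these 6 markers 1, SLC6A13, was called higher, 3 had an unadjusted p under 0.05, and none was at 0 in any library. The summed level of 6 neuron markers was 4370 and 4250 CPM in sevoflurane replicates 2 and 3, against 3430 and 4570 CPM in control replicates 2 and 3, with 0 of 6 called by edgeR and 0 with an unadjusted p under 0.05. Of 6 astrocyte markers 1, GFAP, was lower, and their summed level was 5410 and 5520 CPM in sevoflurane replicates 2 and 3, against 9230 and 7510 CPM in control replicates 2 and 3. The difference in this sum was carried by GFAP. The other 5 astrocyte markers summed to 3880 and 3620 CPM in sevoflurane replicates 2 and 3, against 3980 and 3630 CPM in control replicates 2 and 3, and 3 of these 5 had positive log2 fold changes. SLC1A2 and SLC1A3 made up most of that sum, which therefore says little of the rest. AQP4 (-0.49, adjusted p = 0.367 by edgeR) and GJA1 (-0.40, adjusted p = 0.526) were negative. For both, the sevoflurane libraries lay below the control libraries. Of the 6 astrocyte markers, 2 had an unadjusted p under 0.05. Of 6 microglia markers 1, CX3CR1, was lower, with summed levels of 206 and 242 CPM in sevoflurane replicates 2 and 3, against 330 and 289 CPM in control replicates 2 and 3. CX3CR1 itself had 44.3 and 46.1 CPM in sevoflurane replicates 2 and 3, against 95.5 and 89.6 CPM in control replicates 2 and 3. Of the 6 microglia markers, 3 had an unadjusted p under 0.05. C1QA, 1 of these 3, was higher in both sevoflurane libraries (0.66, SE 0.22, adjusted p = 0.331 by edgeR). The summed level of 6 endothelial markers was 180 and 166 CPM in sevoflurane replicates 2 and 3, against 160 and 184 CPM in control replicates 2 and 3, with 0 of 6 called by edgeR and 1 with an unadjusted p under 0.05. The part of tissue sampling or cell makeup in the lower level of the 10 factors was not tested.

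The genes most like the 10 factors over the 4 libraries, by distance from the factors' median profile in centred log2 CPM, were COL9A2 (-1.35), SEPT4 (-1.36), GPR37 (-1.31), PLEKHB1 (-1.27) and HHIP (-1.23), given with their log2 fold changes. GPR37, a receptor of maturing oligodendrocytes, had 19.6 and 24.2 CPM in sevoflurane replicates 2 and 3, against 47.1 and 61.5 CPM in control replicates 2 and 3. With 4 libraries such likeness is a description, and 16 of the 9948 genes compared lay within a distance of 0.25.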

How the data were processed

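The authors deposited 1 table of raw read counts per gene, with a column for each of the 4 libraries. The submitters' processing notes name HISAT2 as the aligner. Its version, the counting program, genome build, annotation and strand setting were not given in the sources used here. Levels between genes were not compared, because transcript lengths were not used here.

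In R 4.3.3, edgeR 4.0.16 filtered genes (filterByExpr, 10 counts at the median depth and 15 in total), which left 17693 of 33618, the 10 factors included. ST18 passed at the margin. After TMM scaling, sevoflurane was compared with control by edgeR's quasi-likelihood F test (two-sided, no covariate), adjusted over all tested genes by Benjamini-Hochberg. Log2 levels per library used a prior count of 2. The quasi-likelihood test, the likelihood ratio test, limma-voom and DESeq2 were run beforehand on simulated counts with the main filter. The other scalings and filters, the replicate block and the fits with 1 library left out were not. Alternatives used other scaling, filters, thresholds, the replicate number as a block, DESeq2 1.42.0, limma-voom (limma 3.58.1), the likelihood ratio test, and 1 library left out, with the genes tested kept the same.

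The factors and gene lists were chosen with earlier results of these data known. All 10 factors are named, and of other lists the called genes and up to 3 members with the smallest p. Genes outside this rule (PDGFRA, MYT1, MYT1L, SOX9, TCF3, TCF4, TCF12, LMF1, LOC106994903 and the cell type markers) were named for their role, and some single-gene values are not reported here. Intervals of counts and shares cover counting error only.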

Additional observations from a re-analysis of the deposited data

How the results depend on the processing

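No factor changed direction under any alternative in which it was tested. The number of factors called lower, 4 of 10, was 2 with library size alone and 2 with no filter, 7 by DESeq2, 7 by the likelihood ratio test, 8 with the replicate block, 0 at an adjusted p under 0.01, and 5 to 8 with 1 library left out. Over the table, 95 genes were lower and 11 higher. The lower count was 57 with no filter, 219 by DESeq2, 304 by the likelihood ratio test, 341 with the replicate block, 16 at 0.01, 170 at 0.1, and 121 to 420 with 1 library left out. The higher count was 3 with no filter, 60 by DESeq2, 7 by limma-voom, 137 by the likelihood ratio test, 170 with the replicate block, 1 at 0.01, 33 at 0.1, and 57 to 187 with 1 library left out. The cause was not tested.

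Nothing in the sources used here says that the replicate numbers pair libraries. Replicate 2 minus replicate 3 differences correlated by 0.009 between groups over 17693 genes. With a single such difference per group, this cannot settle whether libraries are paired. With the replicate block SOX8 had adjusted p = 0.0138 by edgeR. ST18, with 5 to 25 counts, failed the stricter filter and has no value there. At these counts depth limits what can be said of ST18.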
